A study of Mus musculus with 6 samples.

Results

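Astrocyte maturation genes were followed in the newborn cerebellum, in 9 genes that astrocytes express as they mature: Aqp4, S100b, Aldoc, Gja1, Glul, Aldh1l1, Apoe, Clu and Mlc1. Each was taken by its symbol from a table of 23793 loci, and each matched 1 locus. Cerebellar RNA from postnatal day 0 was sequenced in 3 control and 3 conditional knockout (cKO) libraries. Control mice carried 1 floxed allele of Zeb2 (Zeb2 f/+; hGFAP-cre) and cKO mice carried floxed alleles only (Zeb2 f/f; hGFAP-cre). Zeb2 is a zinc finger transcription factor. The Cre recombinase, which both groups carried, is driven by the human GFAP promoter and acts in neural progenitors and glia, so the control mice could lose 1 allele in the same cells. The series asks how Zeb2 acts in Bergmann glia, the radial astrocytes that span the cerebellar cortex, and in how the cerebellum is organised. The labels do not say that each library came from a separate animal, so each p-value covers only how these libraries vary.

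Astrocytes arise from radial progenitors late in development and take on their mature functions over the weeks after birth. They buffer water and potassium at endfeet on blood vessels, share small molecules through gap junctions, turn glutamate into glutamine and secrete lipoproteins. The genes followed here belong to those functions. Aqp4 encodes the water channel of the endfeet and Mlc1 a membrane protein of astrocyte volume regulation. Gja1 encodes connexin 43, the main gap junction protein of astrocytes. Aldoc (aldolase C, of glycolysis), Glul (glutamine synthetase) and Aldh1l1 (a folate enzyme used as a marker of astrocytes) are enzymes. S100b encodes a calcium-binding protein, and Apoe and Clu encode secreted apolipoproteins. Several have other sources: Aldoc is made in bands of Purkinje cells, Apoe in microglia, and S100b also in cells of the oligodendrocyte lineage.

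Promoter sequence of Aldoc, Gja1 and S100b is shown because these genes differed in opposite directions and Zeb2 is a DNA-binding factor known to recognise CACCT. Sequences are from RefSeq (GRCm38.p6), read 5′ to 3′ along the gene's strand, with CACCT or its reverse complement AGGTG in capitals. For Gja1 and S100b the 250 bases before the gene's start are given. For Aldoc only the 30 bases around its motifs are given, since the GENCODE locus starts 26 bases before that stretch and RefSeq places the start after it.
Aldoc, chr11:78322994-78323023, plus strand: cactcCACCTcactactcCACCTctgaggg
Gja1, chr10:56377050-56377299, plus strand: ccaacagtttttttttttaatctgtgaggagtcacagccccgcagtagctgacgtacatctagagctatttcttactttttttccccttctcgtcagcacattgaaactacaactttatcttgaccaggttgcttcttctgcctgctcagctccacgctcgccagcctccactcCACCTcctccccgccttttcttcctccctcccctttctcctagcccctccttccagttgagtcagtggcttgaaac
S100b, chr10:76253586-76253835, plus strand: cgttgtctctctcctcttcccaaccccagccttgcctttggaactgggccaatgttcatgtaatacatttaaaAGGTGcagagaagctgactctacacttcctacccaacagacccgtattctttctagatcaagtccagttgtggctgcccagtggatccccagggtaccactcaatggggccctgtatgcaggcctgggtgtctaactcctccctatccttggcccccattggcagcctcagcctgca
Aldoc held CACCT at 74 and 61 bases before its RefSeq start and Gja1 at 76 bases before its start, in all 3 cases on the strand of the gene. S100b held it once on the opposite strand, 177 bases before its start. The longer form CACCTG (reverse complement CAGGTG), which contains CACCT, was in none of these windows of the 3 genes. Windows were at hand for 7 of the 9 genes. Glul held 1 CACCT, and Mlc1 1 CACCTG at 221 bases before its start. Aldh1l1 held neither motif. Apoe, with 3 starts, held CACCT at 2 of them and CACCTG at 1. A second start of Aldoc held neither motif. The windows of Aldh1l1 and Mlc1, of the later Apoe starts and of this second Aldoc start lie inside the GENCODE loci given below. They thus do not precede the locus starts stated there. Of all 32851 windows of 250 bases, 45.97% held CACCT on either strand and 17.2% held CACCTG, so a match is common and is given as a description only.

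Before the members, the libraries were checked. Values are FPKM, scaled for transcript length and library size, with library sums from 497542 to 524474 FPKM. Read numbers behind them are unknown here, which limits the precision of low values. Zeb2 averaged 9.65 ± 1.73 FPKM over the controls and 5.30 ± 1.23 over the cKO libraries (SD, n = 3 each), and its exact two-sided permutation p of 0.1 is the smallest that 3 libraries against 3 can give. Its log2 fold change was -0.77 (SE 0.18), and it did not pass over all loci (limma adjusted p = 0.107). Of 11 cerebellar genes, 10 reached 1 FPKM in at least 3 libraries, among them En2, Zic1 and Pax6, while Gabra6, a gene of mature granule neurons, was at 0.181 FPKM or less. All 9 members were at 1.94 FPKM or more in every library. Xist averaged 0.394 ± 0.105 FPKM across controls and 144.0 ± 3.05 across cKO libraries, and 4 of 4 Y-linked genes were near 0 in cKO, so sex and genotype are one and the same contrast here and cannot be told apart. The library cKO 3 lay nearest the controls on the first principal component. By the step pattern of low values, control 1 and cKO 3 form 1 processing set and the other 4 libraries another, and both sets hold both genotypes.

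The members split. S100b fell in cKO, Aqp4 and Aldh1l1 had lower values there, Aldoc and Gja1 had higher ones, and Glul, Apoe, Mlc1 and Clu had smaller differences. At an adjusted p of at most 0.05 over the 13612 loci tested (limma, Benjamini-Hochberg), 0.573% of all loci passed. Of the 9 members, 1 passed as lower, where 0.331% of all loci did. None of the 9 passed as higher, where 0.242% of all loci did, and 2 had an unadjusted p under 0.05 in that direction. In 6 of the 9 genes the groups did not overlap (23.9% of all loci), 2 with cKO higher (10.3% of all loci) and 4 with cKO lower (13.6% of all loci). The same 6 had an unadjusted p under 0.05, as did 17.6% of all loci (7.82% as higher and 9.79% as lower). The median log2 fold change was -0.14 over the members and -0.0095 over all loci tested. When small-RNA loci were dropped before fitting, 2.47% of loci passed, and so did 4 members. These were S100b and Aqp4 as lower (1.51% of loci) and Aldoc and Gja1 as higher (0.957% of loci). Without cKO 3 the count was again 1 member, S100b, and the median was -0.22. In whole tissue, fewer cells of a type and less RNA per cell cannot be told apart.

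**Figure D1:**
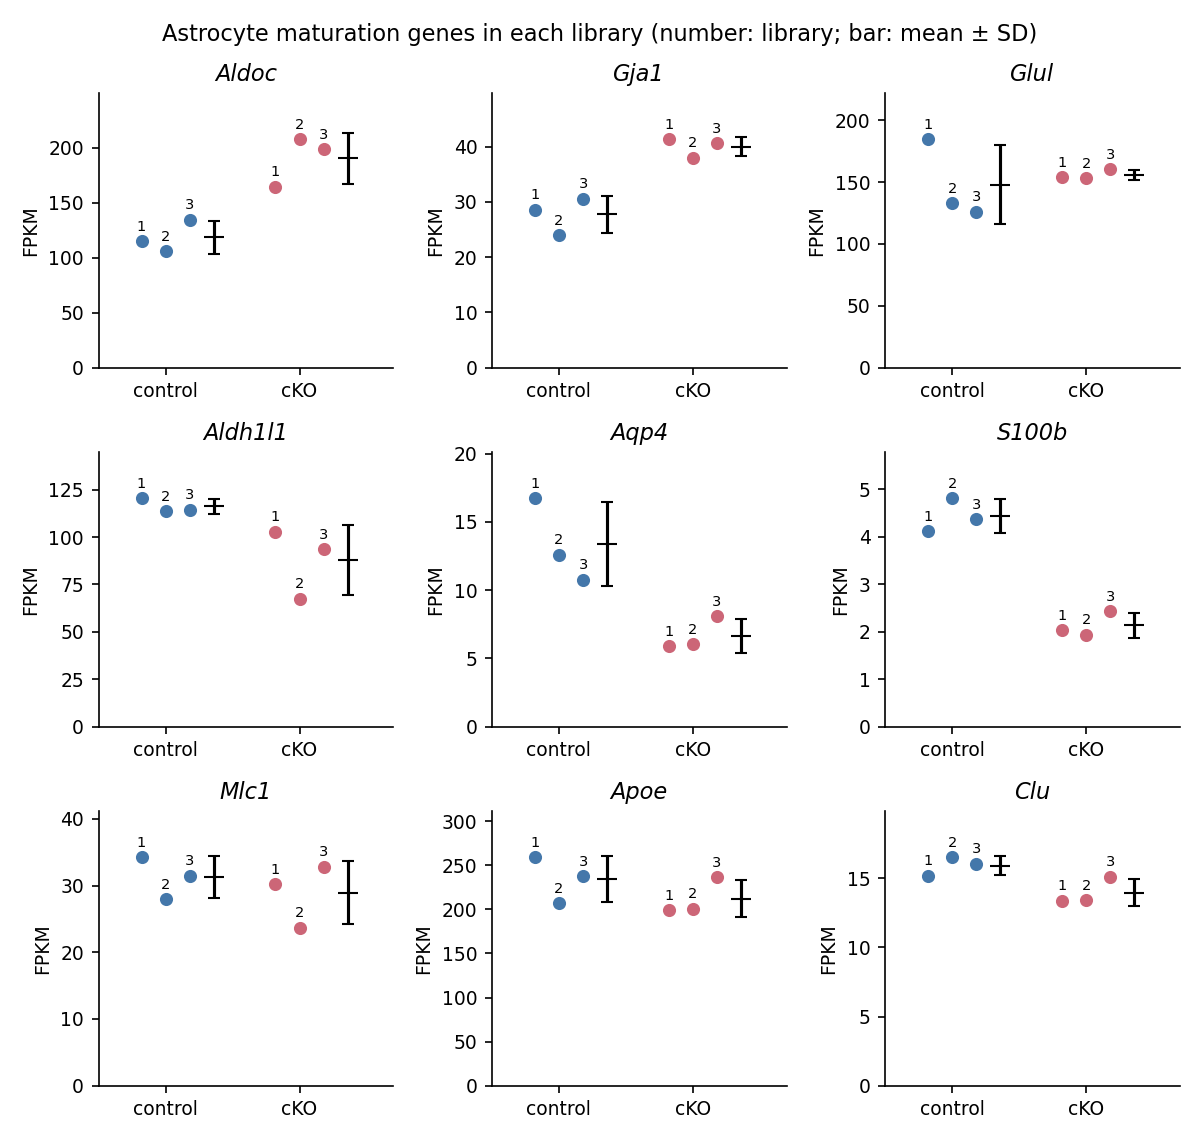
FPKM of the 9 astrocyte genes in each library (y axis, from 0), with control libraries in blue and cKO libraries in red, the library number above each point, and the mean ± SD of the 3 libraries beside them. The groups do not overlap for Aldoc, Gja1, Aldh1l1, Aqp4, S100b and Clu, and they overlap for Glul, Mlc1 and Apoe.

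Among the enzymes, Aldoc had the largest positive difference. Its locus (GRCm38 chromosome 11, 78322968 to 78327781, plus strand) stood at 115, 106 and 135 FPKM in control libraries 1 to 3 and at 164, 208 and 199 FPKM in cKO libraries 1 to 3. Every cKO library lay above every control library, and the lowest of them was cKO 1. The group means were 119 ± 14.7 and 190.4 ± 23.0 FPKM (SD, n = 3 each), a ratio of 1.61, with a log2 fold change of FPKM + 1 of 0.68 (SE 0.12, limma adjusted p = 0.0723). Aldoc passed with small-RNA loci left out (adjusted p = 0.0238) and with robust variance estimation (0.0211), in none of the other 11 alternatives (up to 0.246) and in none of the 6 fits with a library left out (0.0791 to 0.242). Within the processing sets its log2 difference was 0.79 for cKO 3 against control 1 and 0.63 in the other 4 libraries. Its paralog Aldoa, the aldolase of most tissues, was at 350.9 ± 23.7 and 372.7 ± 24.2 FPKM (log2 fold change 0.09, SE 0.08, limma adjusted p = 0.624).

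Aldh1l1 went the other way. Its locus (chromosome 6, 90486427 to 90600203, plus strand) stood at 121, 114 and 114 FPKM in the controls and at 103, 67.4 and 93.7 FPKM in cKO 1 to 3. The controls were tightly grouped and every cKO library lay below them, with cKO 2 far below the others. The log2 fold change was -0.42 (SE 0.15, 95% interval -0.77 to -0.07, limma adjusted p = 0.224), and it was -0.24 without cKO 2. The mitochondrial paralog Aldh1l2 was at 7.19 ± 0.445 and 7.69 ± 0.482 FPKM.

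Glul (chromosome 1, 153899944 to 153909723, plus strand), at a locus the table also names for Mir8114, stood at 185, 133 and 126 FPKM in the controls and at 154, 153 and 161 FPKM in cKO. The cKO libraries lay inside the control range, which control 1 set at its upper end. The log2 fold change was 0.10 (SE 0.14, 95% interval -0.23 to 0.43, limma adjusted p = 0.765), so these libraries allow a log2 change of up to 0.43. It took opposite signs within the processing sets, at -0.20 for cKO 3 against control 1 and 0.25 in the other 4 libraries, and was -0.0066 without control 3.

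Gja1 (chromosome 10, 56377330 to 56402513, plus strand) stood at 28.6, 24.0 and 30.6 FPKM in the controls and at 41.4, 38.03 and 40.6 FPKM in cKO. The cKO libraries were close together and all above the controls. The ratio of the means was 1.44, and the log2 fold change was 0.52 (SE 0.09, 95% interval 0.30 to 0.74, limma adjusted p = 0.0723). Gja1 passed with small-RNA loci left out (adjusted p = 0.026) and with robust variance estimation (0.0208), but in no other alternative (up to 0.231) and in no fit with a library left out (0.08 to 0.175). Its log2 difference was 0.49 for cKO 3 against control 1 and 0.53 in the other 4 libraries.

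Aqp4, the water channel (chromosome 18, 15389496 to 15410982, minus strand), stood at 16.7, 12.6 and 10.8 FPKM in the controls and at 5.89, 6.02 and 8.10 FPKM in cKO. The highest cKO library was cKO 3 and the highest control library was control 1, the 2 libraries of the same processing set. The cKO mean was 49.9% of the control mean, with a log2 fold change of -0.90 (SE 0.17, 95% interval -1.31 to -0.49, limma adjusted p = 0.0788). With the processing set as a covariate the same difference had an adjusted p of 0.0165, and with small-RNA loci left out 0.0276. It passed in no other alternative (up to 0.21) and in no fit with a library left out (0.0829 to 0.255). Within the sets it was -0.96 and -0.86, while within the 2 deposits of samples it was -1.16 in the first and -0.37 in the second, which holds control 3 and cKO 3 only.

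Mlc1, also of the astrocyte membrane (chromosome 15, 88955884 to 88979007, minus strand), stood at 34.3, 27.9 and 31.5 FPKM in the controls and at 30.2, 23.7 and 32.8 FPKM in cKO. The groups overlapped, and cKO 2 was the lowest of the 6. The log2 fold change was -0.12 (SE 0.13, 95% interval -0.42 to 0.19, limma adjusted p = 0.688), and it was 0.016 without cKO 2.

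S100b was the member that passed over all loci. Its locus (chromosome 10, 76253853 to 76261159, plus strand) stood at 4.12, 4.81 and 4.37 FPKM in the controls and at 2.03, 1.94 and 2.44 FPKM in cKO. It was the least abundant of the 9 genes, and the gap between the groups was wider than the spread within either. The cKO mean was 48.2% of the control mean, and the log2 fold change was -0.79 (SE 0.09, 95% interval -1.01 to -0.58, limma adjusted p = 0.0235). The call held without cKO 3 (limma adjusted p = 0.0293) and was lost without any one of the other 5 libraries (0.0656 to 0.119). It was also lost with the replicate number as a block (0.147) and with the deposit as a covariate (0.0672). The same held without a filter on low values (0.0687) and in the larger processing set alone (0.0775). Of the related S100 genes, S100a16 was at 18.4 ± 2.18 and 12.4 ± 1.28 FPKM and S100a13 at 5.37 ± 0.603 and 3.39 ± 0.555 FPKM. Both had cKO values below every control value without passing (log2 fold changes -0.53 and -0.54, limma adjusted p = 0.0801 and 0.0945). S100a1 was at 8.25 ± 1.21 and 8.96 ± 0.334 FPKM.

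The secreted apolipoproteins had small negative differences. Apoe (chromosome 7, 19696109 to 19699188, minus strand) stood at 259, 207 and 238 FPKM in the controls and at 199, 200.9 and 237 FPKM in cKO. The libraries cKO 1 and cKO 2 were below the controls and cKO 3 was among them. Its log2 fold change was -0.14 (SE 0.11, 95% interval -0.40 to 0.11, limma adjusted p = 0.538). Clu (chromosome 14, 65968483 to 65981547, plus strand) stood at 15.2, 16.5 and 16.04 FPKM in the controls and at 13.4, 13.4 and 15.1 FPKM in cKO. The gap between cKO 3 and control 1 was small, and the log2 fold change was -0.18 (SE 0.07, 95% interval -0.34 to -0.02, limma adjusted p = 0.238).

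**Figure D2:**
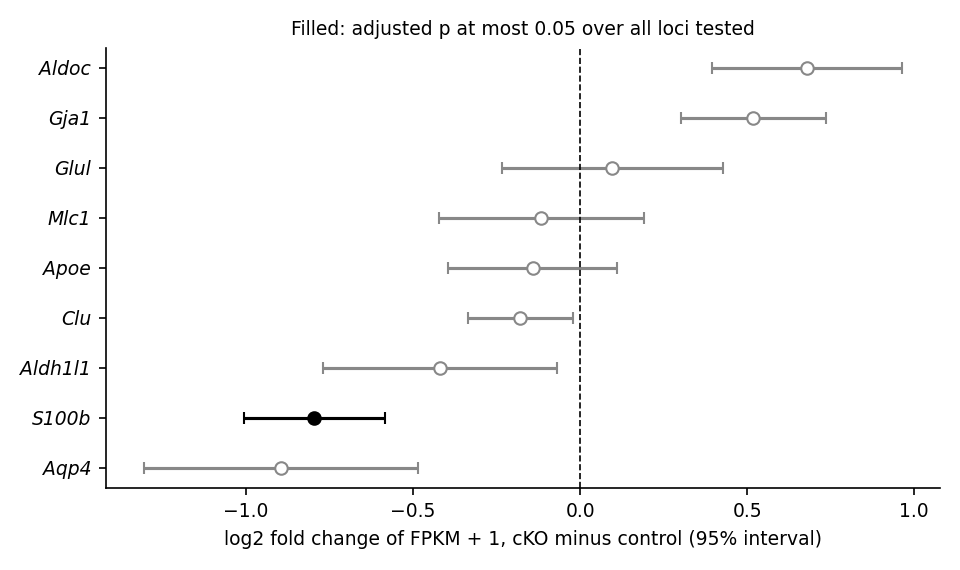
Log2 fold change of FPKM + 1 (x axis, cKO minus control) of each of the 9 genes, with the 95% interval of the limma fit and a dashed line at 0. The intervals of Aldoc and Gja1 lie above 0, those of Aqp4, S100b, Aldh1l1 and Clu below it, and those of Glul, Mlc1 and Apoe span it, while S100b alone (filled) passes after adjustment over all loci.

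Levels of the 9 genes spanned a wide range, and part of their order differed between the groups. By mean FPKM the controls ran Apoe, Glul, Aldoc, Aldh1l1, Mlc1, Gja1, Clu, Aqp4 and S100b. Library ranges overlapped between Glul and Aldoc, Aldoc and Aldh1l1, Mlc1 and Gja1, and Clu and Aqp4, so those neighbours did not differ beyond their spread. In cKO the order was Apoe, Aldoc, Glul, Aldh1l1, Gja1, Mlc1, Clu, Aqp4 and S100b, and only Apoe and Aldoc overlapped. Aldoc and Aldh1l1, level in the controls at 119 and 116.2 FPKM, were at 190.4 and 88.0 FPKM in cKO. Spread within a group was largest for Aqp4 and Glul in the controls (coefficients of variation 22.8% and 21.6%) and for Aldh1l1 in cKO (20.9%).

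Ratios of members within a library do not depend on how libraries were scaled, and the pairs were chosen after their values were seen. The ratio of Aldoc to S100b was 27.96, 21.99 and 30.8 in the controls and 80.9, 107 and 81.6 in cKO. The ratio of Gja1 to Aqp4 was 1.71, 1.91 and 2.84 in the controls and 7.03, 6.31 and 5.01 in cKO. Aldoc to Aldh1l1 gave 0.955, 0.932 and 1.18 against 1.60, 3.08 and 2.12. In all 3 ratios every cKO library lay above every control library. The ratio of Clu to Apoe overlapped between the groups, at 0.0687 ± 0.0107 and 0.0659 ± 0.00177 (SD, n = 3 each).

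**Figure D3:**
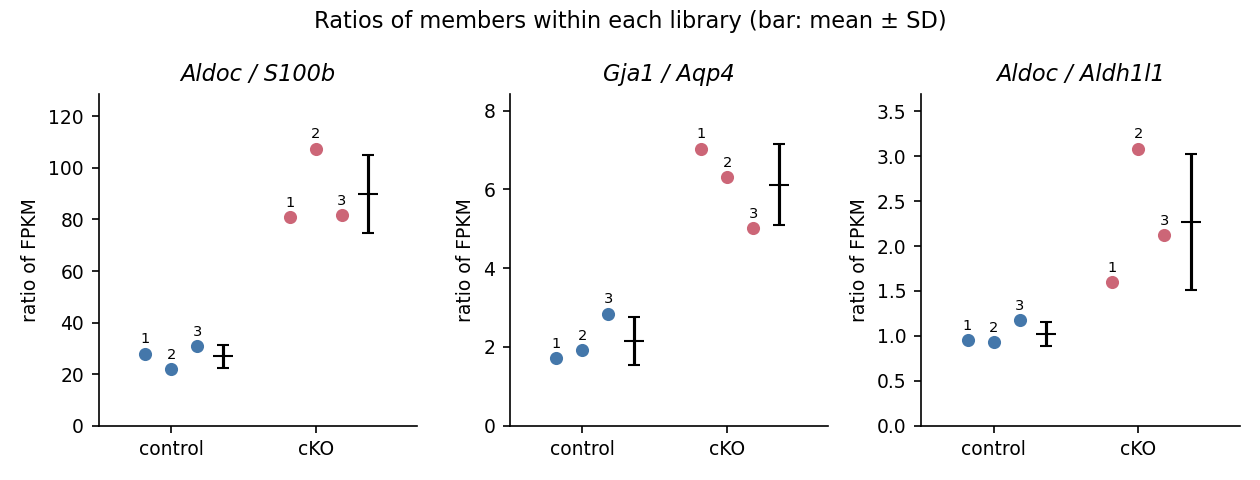
Ratios of FPKM within each library (y axes, from 0) for Aldoc to S100b, Gja1 to Aqp4 and Aldoc to Aldh1l1, with library numbers above the points and the mean ± SD beside them. All 3 ratios are higher in every cKO library (red) than in every control library (blue), which follows from the separation of the single genes. The library cKO 2 has the highest ratio of Aldoc to S100b and to Aldh1l1.

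Other astrocyte genes also lay on both sides. Of 40 listed genes 38 were tested, and 1 rose and 1 fell, with 21 positive and 17 negative log2 fold changes and a median of 0.04. Slc4a4, the sodium bicarbonate cotransporter of astrocytes, rose in every cKO library (34.3, 33.7 and 29.2 FPKM against 19.5, 18.1 and 21.7, limma adjusted p = 0.0336). The orphan receptor gene Gpr37l1, which is also on the Bergmann glia list, fell to 1.45, 1.32 and 1.59 FPKM from 6.93, 5.25 and 4.60 (limma adjusted p = 0.011). Leaving out 1 library at a time, Slc4a4 stayed called in 2 of 6 fits (without control 3 or cKO 3) and Gpr37l1 in 3 of 6 (without control 1, control 3 or cKO 3). Dropping small-RNA loci gave 6 higher and 2 lower calls among the 38. Fgfr3, a growth factor receptor, and Plpp3, a lipid phosphatase, came next by p. They stood at 4.84 ± 0.626 against 7.98 ± 0.869 FPKM and at 62.4 ± 1.23 against 78.8 ± 4.55 FPKM (limma adjusted p = 0.0706 for both). Gfap, the intermediate filament of mature astrocytes, had control values of 2.94, 2.97 and 2.59 FPKM and cKO values of 1.73, 2.09 and 3.15 FPKM, so the groups overlapped.

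**Figure D4:**
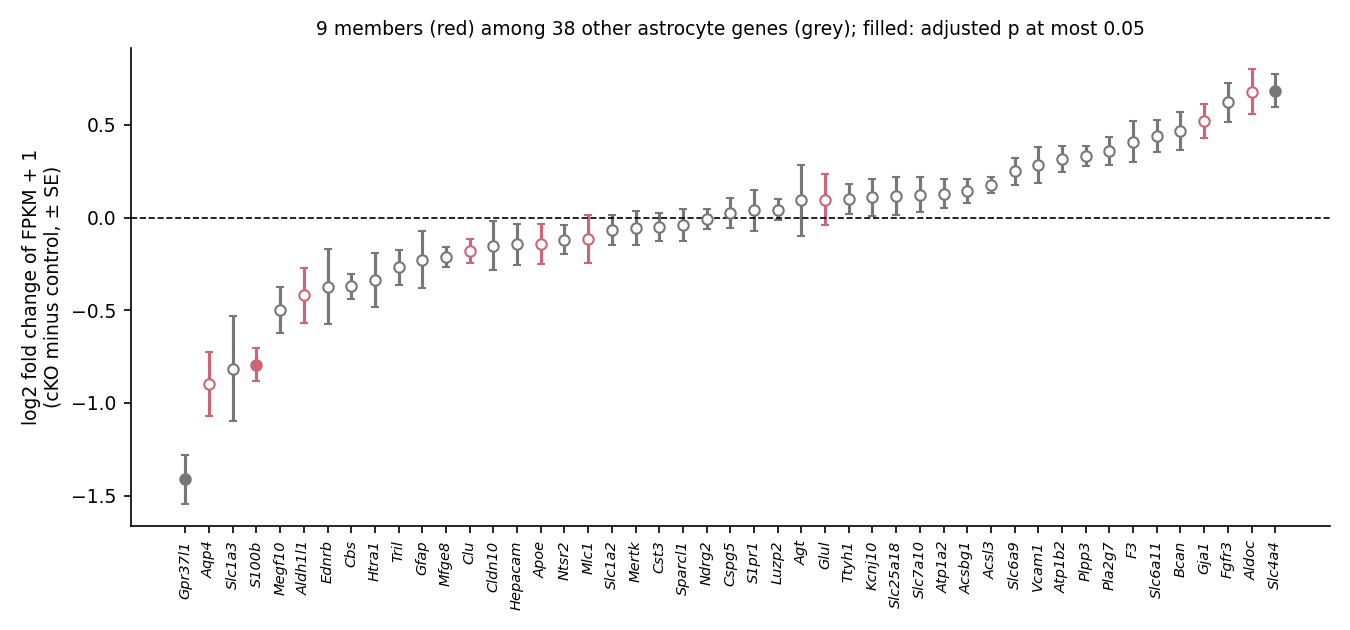
Log2 fold change of FPKM + 1 (y axis, cKO minus control, ± SE) of the 9 members (red) and the 38 other astrocyte genes tested (grey), in order of size, with filled points for an adjusted p of at most 0.05. Both sets spread on either side of 0, and the filled points are Gpr37l1 and S100b below it and Slc4a4 above it.

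Of 11 tested genes of the endfeet and of volume regulation, 2 rose and none fell (1 had an unadjusted limma p under 0.05 as lower): Slc4a4, and Sntb1, a syntrophin of the dystrophin complex, at 2.03 ± 0.609 and 5.29 ± 0.525 FPKM (limma adjusted p = 0.0439, kept in 1 of 6 fits with a library left out, that without control 3). Kcnj10, the potassium channel found with Aqp4, was at 10.4 ± 1.07 and 11.3 ± 1.26 FPKM. Hepacam, the partner of Mlc1, was at 23.95 ± 2.84 and 21.6 ± 2.59 FPKM. The difference between Aqp4 and these genes was not itself tested.

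Of 7 connexins and junction partners tested none passed (limma), with an unadjusted p under 0.05 in 1 as higher and 2 as lower. Gjb6, connexin 30, the other astrocyte connexin, did not reach 1 FPKM and was not tested. It stood at 0.215, 0.266 and 0.296 FPKM in the controls and at 0.889, 0.907 and 0.456 FPKM in cKO, without overlap, as Gja1 did. Gjc3, a connexin of the oligodendrocyte lineage, was at 3.96 ± 0.780 and 1.86 ± 0.327 FPKM, and Gjc1, connexin 45, at 19.95 ± 0.769 and 15.2 ± 1.53 FPKM (limma adjusted p = 0.0723 and 0.0905).

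Around Glul, none of 11 genes of glutamate and glutamine handling passed (limma), with an unadjusted p under 0.05 in 3 as higher and 2 as lower. Slc7a11, the cystine and glutamate exchanger, was at 1.59 ± 0.257 and 3.02 ± 0.357 FPKM, and Slc38a3, a glutamine exporter of astrocytes, at 25.3 ± 3.92 and 38.9 ± 2.78 FPKM (limma adjusted p = 0.0664 and 0.074). The glutamate transporters differed from each other: Slc1a2 was at 28.4 ± 1.67 and 27.2 ± 2.71 FPKM, and Slc1a3 had control values of 302, 260.3 and 244 FPKM and cKO values of 206, 92.9 and 182 FPKM. For Slc1a3 and Aldh1l1 alike, cKO 2 was the lowest library.

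Around Apoe, none of 15 lipoprotein genes and receptors passed (limma), with an unadjusted p under 0.05 in 4 as higher and 2 as lower and a median log2 fold change of 0.07. Lcat, which esterifies cholesterol on lipoproteins, was at 10.5 ± 1.2 and 7.66 ± 1.37 FPKM and Abca1, which loads them with lipid, at 10.8 ± 0.843 and 12.5 ± 1.03 FPKM. Of 19 regulators of gliogenesis none passed either (limma), with 2 as higher and 2 as lower at an unadjusted p under 0.05. Sox9 and Nfia, which drive astrocyte fate, were at 15.7 ± 1.87 and 15.2 ± 4.72 FPKM and at 17.0 ± 0.612 and 15.7 ± 2.54 FPKM. Rfx4, a transcription factor of radial glia, was at 15.6 ± 1.53 and 11.3 ± 1.39 FPKM (limma adjusted p = 0.119).

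Markers of several other cell types also differed between the groups, and those of others overlapped. Over all loci tested, 6401 of 13612 had positive log2 fold changes. All 13 tested of 14 microglia markers had positive log2 fold changes (median 0.32, 1 called, Csf1r), and their summed level was 68.8 to 71.3 FPKM in the controls and 86.3 to 93.8 in cKO, while Apoe, which microglia also express, had a negative one. For the oligodendrocyte lineage, 3 of 10 were positive, Olig1 rose, and the sum was 164 to 196 FPKM in the controls and 238 to 261 in cKO. That direction rests on Olig1, at 72.6 FPKM on average in the controls and 146.9 in cKO: without it the sums overlapped, at 101 to 111 FPKM and 91.8 to 106.5 FPKM. Olig2 remained in these sums, at 21.0 ± 4.24 and 33.3 ± 4.10 FPKM and higher in every cKO library (limma adjusted p = 0.103). The unadjusted limma p was under 0.05 as higher in 2 of the 10, Olig1 and Olig2, and as lower in 6. S100b and Gjc3 were also lower at such a p. Purkinje cell markers, of which Pvalb fell (limma adjusted p = 0.0331, lost in all 6 fits with a library left out), summed to 889 to 930.5 FPKM in the controls and 950.7 to 1013 in cKO, with 10 of 12 positive and Calb1 at 87.3 ± 5.21 and 101 ± 10.8 FPKM, in the direction of Aldoc. Bergmann glia markers summed to 2880 to 3007 FPKM in the controls and 2376 to 2648 in cKO, with 11 of 15 negative. No marker was at 0 in all libraries. Endothelial sums were 104 to 127 and 138 to 147.5 FPKM and ependymal sums 46.7 to 50.6 and 51.1 to 62.8, which nearly meet. Among endothelial markers Mfsd2a differed most in FPKM, at 15.5 ± 3.77 and 27.9 ± 2.61, while Pecam1 was at 7.67 ± 0.595 and 8.06 ± 1.05. Among ependymal markers Mia differed most, at 10.2 ± 0.824 and 15.3 ± 2.31 FPKM, while Foxj1 was at 10.4 ± 0.779 and 11.7 ± 2.78. Choroid plexus sums overlapped between the groups. Meningeal sums overlapped too, at 33.6 to 66.6 FPKM and 43.8 to 104.5 FPKM, with 9 of 10 tested markers positive and a median log2 fold change of 0.79. None of the 10 passed (limma), with an unadjusted p under 0.05 in 3 as higher and 1 as lower, and Ptgds and Foxc1 were higher in every cKO library. The part of these cells in the members' differences was not tested. Csf1r kept its call in 0 of 6 fits with a library left out, and Olig1 in 2 of 6 (without control 2 or control 3).

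**Figure D5:**
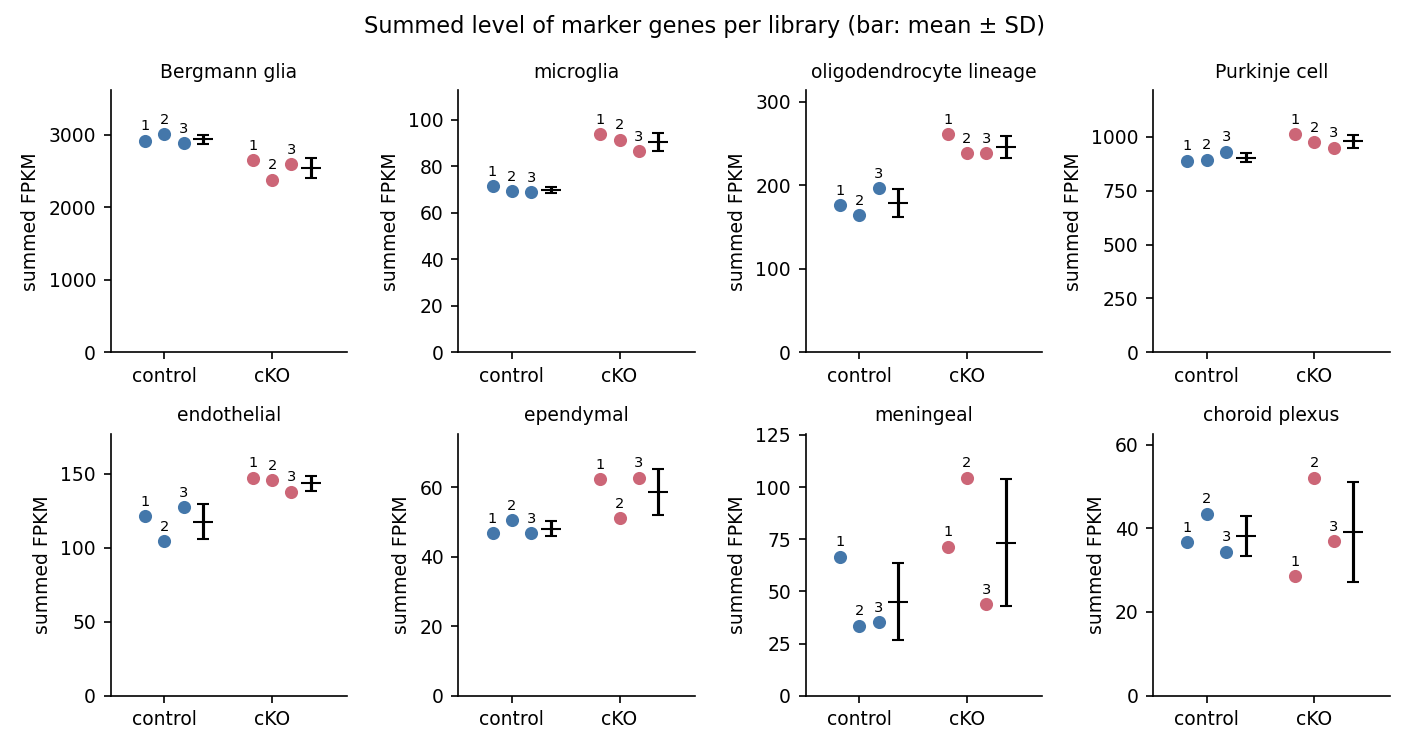
Summed FPKM of the marker genes of 8 cell types in each library (y axes, from 0), with library numbers above the points and the mean ± SD beside them. Sums of microglia, oligodendrocyte lineage, Purkinje cell, endothelial and ependymal markers are higher in every cKO library (red), that of the oligodendrocyte lineage through Olig1, the sum of Bergmann glia markers is lower, and those of meningeal and choroid plexus markers overlap with the controls (blue). The largest differences were in Vim and Slc1a3 for Bergmann glia, Mfsd2a for endothelial and Mia for ependymal markers.

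The loci whose values ran most alike with Aldoc and S100b were listed by Pearson's r of log2(FPKM + 1) over the 6 libraries, among 11626 loci. Closest to Aldoc were Ttc39b (r = 0.994), Clec2l (0.991) and Chst1 (0.99), and 256 loci had r above 0.9. Closest to S100b were Eme1 (r = 0.998), Lig3 (0.997) and Wdr43 (0.997), and 514 loci had r above 0.9. With 6 libraries in 2 groups such values mostly reflect the difference between the groups. Eme1, a subunit of a DNA repair endonuclease, had control values of 6.47, 6.88 and 6.55 FPKM and cKO values of 4.49, 4.36 and 4.998 FPKM.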

How the data were processed

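CASAVA, TopHat, Cufflinks and build mm10 are named for the authors' processing, per the submitters' processing notes. The deposited values, 1 per locus and library, carry no stated unit and were taken as FPKM because of the Cufflinks locus names and their range. Not given in the sources used here are versions, annotation, strand and scaling. Titles number the libraries, although the description of cKO 1 carries another number. The 13612 loci that reached 1 FPKM in 3 or more libraries were tested as log2(FPKM + 1) with limma 3.58.1 (R 4.3.3, trend, two-sided), with Benjamini-Hochberg adjustment over all of them and a threshold of 0.05. Exact permutation was also used for Zeb2. The fit was tested on simulated data. Coordinates are from GENCODE M21 and promoters from RefSeq. The members and the other gene lists were chosen with earlier results of these data known. Genes named are the members, Zeb2, called list genes, up to 4 per list by p, and the 3 nearest patterns of 1 higher and 1 lower member. Aldoa, Aldh1l2, S100a1, Gfap, Gjb6, Kcnj10, Hepacam, Slc1a2, Abca1, Sox9, Nfia, En2, Zic1 and Gabra6 were named after their values were seen. So were Calb1, Olig2, Fabp7, Pecam1 and Foxj1. Plpp3 was matched by an older symbol. Processing sets are libraries whose low values share a step pattern. Alternatives were the replicate number, deposit or processing set in the fit, 2 pseudocounts, 2 filters, 2 scalings, small-RNA or X and Y loci left out, robust variance, each library left out and, added after seeing the data, the larger processing set alone.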

Additional observations from a re-analysis of the deposited data

How the results depend on the processing

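The main fit called 78 loci. The total called was 15 with the replicate number as a block, 22 with the deposit as a covariate and 28 without a filter. It was 30 at a mean of at least 5 FPKM, 330 with small-RNA loci left out and 336 with robust variance. In the larger processing set alone the total was 30, and it ran from 21 to 55 with 1 library left out. How many of the 78 were among these was not counted. Of the 9 members, 1 was called. The limma count was 0 under the block, the deposit covariate, no filter and the larger set alone, with 6 members at an unadjusted p under 0.05 in each. It was also 0 at a mean of at least 5 FPKM, which removes S100b, with 5 members at such a p. The count was 2 with the processing set as a covariate, 4 with small-RNA loci left out, 3 with robust variance, and 0 to 1 with 1 library left out. Zeb2 had an adjusted p of 0.0445 at its log2 fold change of -0.77 with small-RNA loci left out. With 1 library left out, the log2 fold change ran from -0.0066 to 0.27 for Glul and from -0.21 to 0.016 for Mlc1, and no other member changed sign under any alternative. Deviations of same-numbered libraries from their group means had r of -0.027, 0.037 and 0.049 across loci. Differently numbered libraries had r from -0.122 to 0.0915. The same-numbered values lie within that range, so they show no pairing but cannot exclude it. Under the replicate block S100b had an adjusted p of 0.147. The depth behind these values is unknown, and so is its effect on their precision.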
